A study of Mus musculus with 9 samples.

Results

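The genes described here encode 9 transcription factors of the lens, *Maf*, *Mafg*, *Mafk*, *Prox1*, *Sox1*, *Pitx3*, *Foxe3*, *Gata3* and *Tfap2a*. They were taken by gene symbol from the 47729 genes quantified by RNA-Seq in whole newborn (P0) mouse lenses, and all 9 were found in every table. The lenses came from wild-type *FVB/N* mice, hemizygous *P0-3.9GFPCre* mice and hemizygous *Le-Cre* mice, all on the *FVB/N* background. Each line was represented by 3 pools of 6 lenses from 3 mice. Both transgenes were made by microinjection and express CRE recombinase together with GFP from a promoter fragment of *Pax6* that is active in the surface ectoderm from the lens placode onward. The paper also reports CRE in the pancreas and retina of both lines. In *P0-3.9GFPCre* embryos it reports widespread recombination outside the eye that began before the placode formed. *Le-Cre* produces CRE and GFP as separate proteins and *P0-3.9GFPCre* produces a fusion of both. The labels name no other allele in any line, and the comparison asks how transcripts of genes on which lens development depends differ between lenses with and without a transgene.

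A vertebrate lens is built of an anterior epithelium, which divides, and of fibre cells, which leave the cell cycle, elongate and fill with crystallins. The large MAF protein c-MAF, PROX1 and SOX1 act in the fibre cells and activate crystallin genes. PITX3, FOXE3 and AP-2 alpha (the product of *Tfap2a*) are needed for the epithelium or for the early lens vesicle, and GATA3 is required for fibre cells to exit the cell cycle. The small MAF proteins MAFG and MAFK lack an activation domain and bind DNA as partners of the CNC factors, such as NRF2 (encoded by *Nfe2l2*), or as dimers with each other.

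The DNA element bound by MAF proteins, the MARE, contains the half-site TGCTGAC. It was searched on both strands of the RefSeq promoters of GRCm38.p6, from 250 bases before to 50 bases after each gene start. Of 32851 promoters, 4.67% held it. Counted by gene, a promoter held it for 0 of 8 of the transcription factor genes (*Maf* had no entry) and for 5 of 15 crystallin genes (33.3%). The first share counts promoters and the others count genes, so they are not on the same basis. The crystallin windows are shown because crystallin genes are known targets of c-MAF in the lens. The half-site is in capitals, and each window is written 5′ to 3′ on the strand of the gene.
*Cryaa*, chr17:31677801-31677851, plus strand: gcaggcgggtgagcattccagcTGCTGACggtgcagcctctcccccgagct
*Cryga*, chr1:65103550-65103600, minus strand: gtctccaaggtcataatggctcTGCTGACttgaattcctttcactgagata
*Cryba1*, chr11:77725322-77725372, minus strand: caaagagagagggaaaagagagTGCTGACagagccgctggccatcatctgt
*Crybb1*, chr5:112255714-112255764, plus strand: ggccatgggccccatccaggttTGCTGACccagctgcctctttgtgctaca
*Cryba4*, chr5:112252672-112252722, minus strand: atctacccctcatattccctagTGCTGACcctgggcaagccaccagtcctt
*Cryba4*, chr5:112252625-112252675, minus strand: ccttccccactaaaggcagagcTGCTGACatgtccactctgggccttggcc
A match describes the letters of the window and does not show binding in these lenses.

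Expected counts, RSEM's estimate of the reads from each gene, summed to between 20670968 and 28098059 per pool, of which the 16 listed crystallin genes took 39.1% to 43.0%. The 10 fibre cell markers summed to 9309 to 10069 TPM (transcript abundance scaled for gene length and library total) and the 6 lens epithelial markers to 131 to 171 TPM. Markers of other tissues differed in level. The 8 neural retina markers summed to at most 4.50 TPM, the 6 corneal and surface epithelial markers to at most 1.62 TPM, the 4 pigment cell markers to at most 8.84 TPM, the 5 macrophage markers to at most 1.75 TPM and the 6 mesenchyme markers to at most 4.15 TPM. The 4 vessel markers reached 18.9 to 38.7 TPM and the 5 blood markers 85.2 to 263 TPM, which reached above the lens epithelial markers. Y-linked genes summed to 130, 193 and 121 CPM (counts scaled to the TMM-normalized library size) in *FVB/N*, 56.2, 135 and 1.67 CPM in *P0-3.9GFPCre* and 1.53, 74.2 and 0.619 CPM in *Le-Cre*. Every *Le-Cre* pool was below every *FVB/N* pool, so the Y-linked signal moved with the line, and its part in the differences was examined only by a fit with it as a covariate. In whole lenses, fewer cells of a type and less RNA per cell cannot be told apart.

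The 9 genes spanned about 2 orders of magnitude, and their order by mean TPM was identical in the 3 lines. *Maf*, on chromosome 8 (115682942 to 115707794 of GRCm38, minus strand), was the most abundant. It measured 285, 272 and 337 TPM in the *FVB/N* pools, 287, 259 and 250 TPM in the *P0-3.9GFPCre* pools and 287, 284 and 262 TPM in the *Le-Cre* pools. In *FVB/N*, 99.1% of the genes with any signal lay below it. *Maf* has protein-coding transcripts of 6360 and 3223 bases, and the weighted length that RSEM gives for the gene places the share of the longer one between 59.9% and 65.4% in the 9 pools.

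*Prox1* (chromosome 1, 190118035 to 190170714, minus strand) followed with 113, 108 and 110 TPM in *FVB/N*, 111, 107 and 104 TPM in *P0-3.9GFPCre* and 110, 119 and 109 TPM in *Le-Cre*. Its spread between the *FVB/N* pools was 1.89% of its mean in TPM. *Sox1*, a single-exon gene on chromosome 8 (12395295 to 12400126, plus strand), measured 57.7, 52.8 and 59.5 TPM in *FVB/N*, 59.3, 54.9 and 50.3 TPM in *P0-3.9GFPCre* and 59.6, 53.8 and 50.8 TPM in *Le-Cre*. The pools of the 3 lines overlapped for all 3 of these fibre cell factors.

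*Pitx3* (chromosome 19, 46135685 to 46148326, minus strand) measured 77.8, 97.4 and 104 TPM in *FVB/N*, 94.9, 85.9 and 91.0 TPM in *P0-3.9GFPCre* and 105, 76.5 and 83.6 TPM in *Le-Cre*. *Foxe3* (chromosome 4, 114925147 to 114926013, minus strand), which is expressed in the lens epithelium, measured 35.7, 31.3 and 47.5 TPM in *FVB/N*, 37.0, 27.5 and 31.9 TPM in *P0-3.9GFPCre* and 39.3, 24.6 and 33.1 TPM in *Le-Cre*. The pools of the 3 lines overlapped for both genes. The spread of *Foxe3* was 21.9% of its mean in *FVB/N*, 14.8% in *P0-3.9GFPCre* and 22.9% in *Le-Cre*, and that of *Pitx3* was 14.8%, 5.01% and 16.6%. The TPM of *Pitx3* also depends on how RSEM divided the reads among 3 transcripts. Its weighted length was 870 bases in *FVB/N* replicate 1 and 742 bases in replicate 2.

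*Mafg* (chromosome 11, 120625117 to 120633600, minus strand) was the predominant small MAF gene, at 80.8, 78.6 and 73.7 TPM in *FVB/N*, 95.7, 91.6 and 80.3 TPM in *P0-3.9GFPCre* and 70.2, 84.6 and 74.3 TPM in *Le-Cre*. Its 3 lines overlapped in TPM. It overlaps *Sirt7* on the same strand, where reads cannot always be assigned. *Mafk* (chromosome 5, 139791513 to 139802653, plus strand) was the least abundant of the 9, at 2.75, 2.92 and 2.18 TPM in *FVB/N*, 2.60, 3.18 and 3.61 TPM in *P0-3.9GFPCre* and 2.45, 3.49 and 3.13 TPM in *Le-Cre*.

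*Tfap2a* (chromosome 13, 40715302 to 40738376, minus strand) measured 9.11, 9.14 and 8.39 TPM in *FVB/N*, 8.39, 9.27 and 8.79 TPM in *P0-3.9GFPCre* and 8.32, 8.71 and 7.93 TPM in *Le-Cre*. Of its read-length sequences, 10.2% also occur in transcripts of other genes, the largest share among the 9. *Gata3* (chromosome 2, 9857078 to 9890034, minus strand) measured 9.01, 8.42 and 5.42 TPM in *FVB/N*, 7.17, 7.75 and 7.55 TPM in *P0-3.9GFPCre* and 6.12, 7.60 and 8.62 TPM in *Le-Cre*. Its TPM depends on how RSEM divided the reads among 6 transcripts. *FVB/N* replicates 2 and 3 held 308 expected counts each, yet their weighted lengths were 1741 and 2402 bases, and the TPM values differed accordingly.

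**Figure D1:**
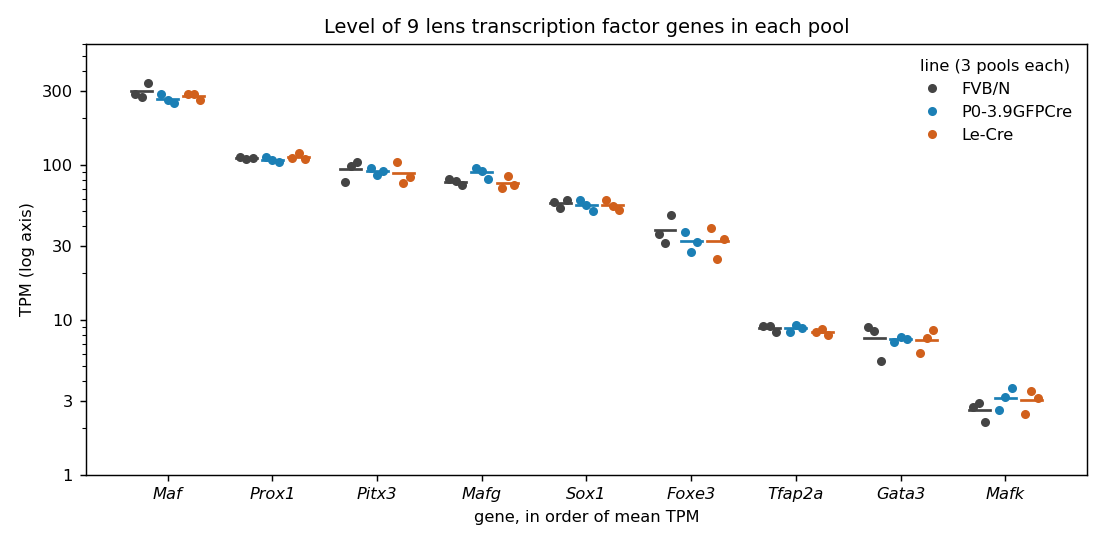
TPM of the 9 genes on a log axis, with 1 point per pool, horizontal bars at the mean of the 3 pools of each line, and genes in the order of their mean. *Maf* lies highest at 250 to 337 TPM and *Mafk* lowest at 2.18 to 3.61 TPM, and for each gene the pools of the 3 lines overlap.

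Not every step in this order was larger than the spread. In each line the pools of *Pitx3* overlapped with those of *Mafg*, the next in order. *Tfap2a* and *Gata3* overlapped in *FVB/N* and *Le-Cre* but not in *P0-3.9GFPCre*, where *Tfap2a* measured 8.82 ± 0.441 TPM (SD, n = 3) and *Gata3* 7.49 ± 0.295 TPM. All other neighbours were separated in every line, and as a ratio the widest step was that between *Foxe3*, at 38.2 ± 8.37 TPM in *FVB/N*, and *Tfap2a*, at 8.88 ± 0.425 TPM.

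The gene families of 8 of the 9 genes, all but *Maf*, were compared. Except for *Mafk*, each of the 8 was the main member of its family in the newborn lens. The 7 families hold 24 genes, and of the 16 relatives 2 reached a mean of 1 TPM in *FVB/N*. *Mafg* supplied 94.1% ± 0.343 (SD, n = 3) of the summed TPM of the small MAF genes in *FVB/N*, *Mafk* 3.16% ± 0.361, and *Maff* stood at 2.29 ± 0.463 TPM.

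*Sox1* supplied 86.4% ± 0.740 (SD, n = 3) of the SOXB1 total in *FVB/N*, and *Sox2*, which acts with PAX6 in lens induction, stood at 8.53 ± 0.364 TPM. *Prox1* supplied 99.6%, *Pitx3* 99.9%, *Tfap2a* 99.3% and *Gata3* 95.9% of their families in the same line. The other 14 relatives did not exceed 0.630 TPM in any pool, and *Foxe1*, *Gata1* and *Tfap2d* were listed at 0 in every pool. The share of *Gata3* was 95.2% ± 1.10 in *P0-3.9GFPCre* and 91.3% ± 2.58 in *Le-Cre* (SD, n = 3). *Gata6* measured 0.300, 0.0400 and 0.170 TPM in *FVB/N*, 0.0700, 0.170 and 0.190 TPM in *P0-3.9GFPCre* and 0.410, 0.630 and 0.320 TPM in *Le-Cre*. These shares were not tested. As a gene, *Gata6* had a log2 fold change of 1.32 in *Le-Cre* relative to *FVB/N* (adjusted p = 0.638). Relative to *P0-3.9GFPCre* it was 1.69 (adjusted p = 0.531), at levels below 1 TPM in every pool. Of *Maff* and *Sox2*, the former had the larger fold change, at 0.40 on the log2 scale in *P0-3.9GFPCre* relative to *FVB/N* (interval -0.07 to 0.87, adjusted p = 0.766) and -0.45 in *Le-Cre* relative to *P0-3.9GFPCre* (adjusted p = 0.661).

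**Figure D2:**
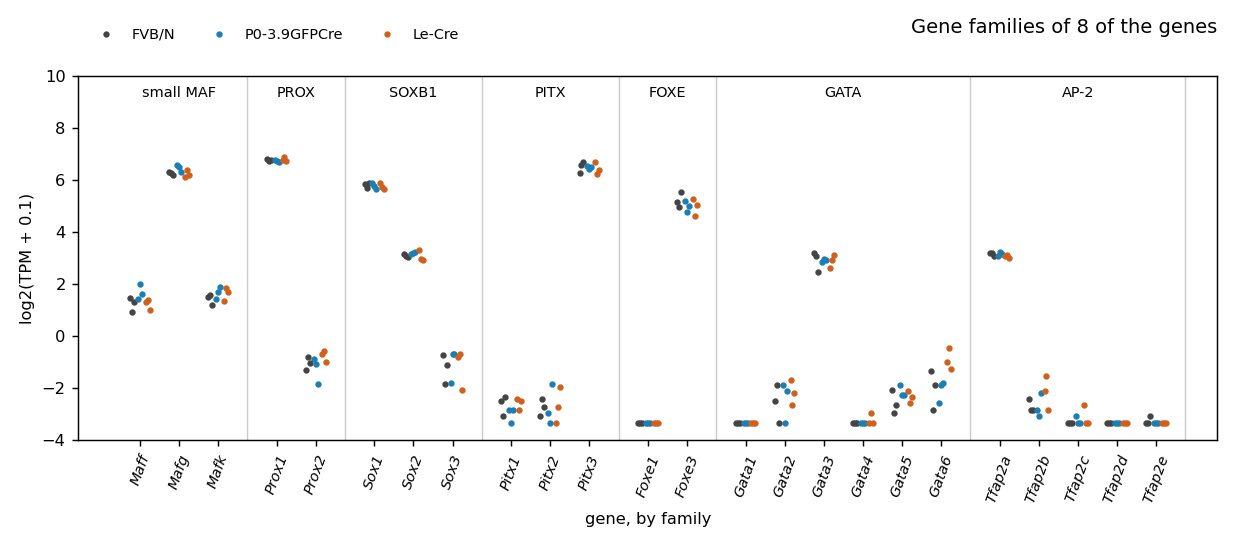
log2(TPM + 0.1) of all 24 genes of the 7 families, with 1 point per pool, coloured by line; genes at the bottom of the axis are listed at 0. One gene stands well above its relatives in every family, from *Mafg* among the small MAF genes to *Tfap2a* among the AP-2 genes.

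No gene of the 9 passed the cutoff, a change of 1.5-fold or more with an adjusted p up to 0.05, in any comparison. In *Le-Cre* relative to *FVB/N* the count was 0 of 9, where edgeR's quasi-likelihood test called 0.0643% of the 15557 genes tested. It was likewise 0 of 9 in *P0-3.9GFPCre* relative to *FVB/N*, in *Le-Cre* relative to *P0-3.9GFPCre*, and in both Cre lines together relative to *FVB/N*, where the share called among all genes was 0.0% each time. At an unadjusted p under 0.05 the counts in these 4 comparisons were 0, 2, 1 and 1 of 9, whereas 7.94%, 6.81%, 7.88% and 7.21% of all genes lay under that value. DESeq2 and limma also called 0 of the 9 in each comparison, where they called at most 49 of all genes tested.

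The data bound the changes more closely than the count alone. For *Le-Cre* against *FVB/N*, the 95% interval of 8 of the 9 genes lay entirely within 1.5-fold in either direction (0.58 on the log2 scale), as it did for 58.5% of all genes. The number was 8 of 9 in *P0-3.9GFPCre* relative to *FVB/N*, against 58.9% of all genes, and 9 of 9 between the Cre lines, against 58.5%. *Foxe3* was the exception in both comparisons with *FVB/N*. In each of these comparisons the median SE was 0.092 for the 9 genes, against 0.147 to 0.148 over all genes, so their intervals were typically narrower. Relative to *FVB/N*, the 9 genes had a median log2 fold change of -0.09 in the *Le-Cre* and -0.08 in the *P0-3.9GFPCre* pools, beside -0.004 and 2.4e-05 over all genes.

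**Figure D3:**
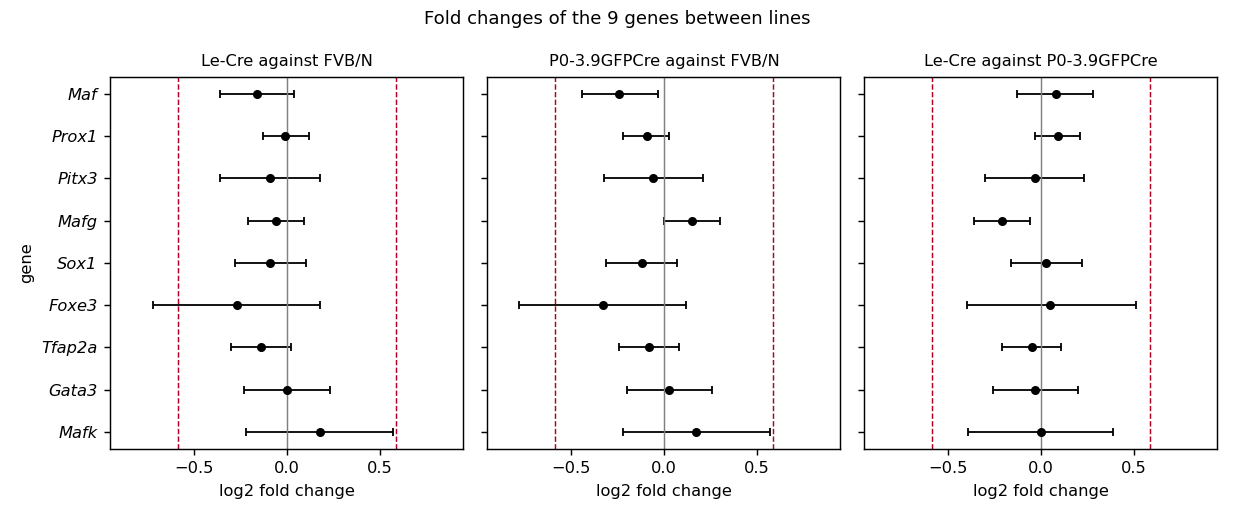
log2 fold changes of the 9 genes (points) with 95% intervals (bars) from edgeR for the 3 comparisons between lines; dashed lines mark 1.5-fold. Only the bars of *Foxe3* cross a dashed line, reaching -0.72 in *Le-Cre* and -0.78 in *P0-3.9GFPCre*.

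Tests used the counts with TMM-normalized library sizes. They are shown here as CPM, which unlike TPM are not divided by transcript length, and no correction for transcript length was made. Among the fibre cell factors, *Maf* measured 1376, 1323 and 1693 CPM in *FVB/N*, 1328, 1219 and 1179 CPM in *P0-3.9GFPCre* and 1377, 1264 and 1288 CPM in *Le-Cre*. *FVB/N* replicate 3 stood above the other 8 pools. The log2 fold change of *Maf* was -0.24 in *P0-3.9GFPCre* (SE 0.092, 95% interval -0.44 to -0.03, adjusted p = 0.662) and -0.16 in *Le-Cre* (SE 0.092, -0.36 to 0.04, adjusted p = 0.729). Without *FVB/N* replicate 3 it was -0.12 and -0.04.

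*Prox1* measured 806, 756 and 827 CPM in *FVB/N*, 754, 751 and 733 CPM in *P0-3.9GFPCre* and 782, 801 and 797 CPM in *Le-Cre*. Every *P0-3.9GFPCre* pool was lower than every *FVB/N* and *Le-Cre* pool, by a small margin. Against *FVB/N*, the log2 fold change was -0.09 in *P0-3.9GFPCre* (SE 0.055, adjusted p = 0.802) and -0.01 in *Le-Cre* (SE 0.055, interval -0.13 to 0.12, adjusted p = 0.993), so that for this gene a change of more than about 1.1-fold in *Le-Cre* lay outside the interval. *Sox1*, with a log2 fold change of -0.12 in *P0-3.9GFPCre* (adjusted p = 0.829) and -0.09 in *Le-Cre* (adjusted p = 0.850), overlapped between lines.

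The small MAF gene *Mafg* came nearest to a difference between the Cre lines. It measured 219, 217 and 209 CPM in *FVB/N*, 226, 255 and 235 CPM in *P0-3.9GFPCre* and 192, 218 and 208 CPM in *Le-Cre*. Every *P0-3.9GFPCre* pool was above every pool of the other lines, while *FVB/N* and *Le-Cre* overlapped. The log2 fold change was 0.15 in *P0-3.9GFPCre* relative to *FVB/N* (SE 0.067, interval 0.0018 to 0.30, adjusted p = 0.722) and -0.21 in *Le-Cre* relative to *P0-3.9GFPCre* (SE 0.067, interval -0.36 to -0.06, adjusted p = 0.470).

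*Mafk*, at 175 expected counts per *FVB/N* pool, was measured less precisely. It stood at 7.49, 7.66 and 6.14 CPM in *FVB/N*, 6.21, 8.38 and 9.47 CPM in *P0-3.9GFPCre* and 6.55, 8.78 and 8.77 CPM in *Le-Cre*, with overlap throughout. The intervals of its log2 fold change ran from -0.22 to 0.57 relative to *FVB/N* in either Cre line.

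Relative to *FVB/N*, the epithelial factor *Foxe3* had the lowest fold changes of the 9 and the widest intervals. It measured 27.6, 23.8 and 38.4 CPM in *FVB/N*, 26.7, 20.6 and 24.1 CPM in *P0-3.9GFPCre* and 30.2, 17.7 and 26.4 CPM in *Le-Cre*. The lines overlapped, and the highest and lowest of the 9 pools differed 2.17-fold. The log2 fold change was -0.27 in *Le-Cre* (SE 0.20, interval -0.72 to 0.18, adjusted p = 0.809) and -0.33 in *P0-3.9GFPCre* (SE 0.21, interval -0.78 to 0.12, adjusted p = 0.810). Without *FVB/N* replicate 3 the values were -0.05 and -0.11, and without *Le-Cre* replicate 2 the *Le-Cre* value was -0.08, while the lowest values without a single pool were -0.44 and -0.47. When the Y-linked signal entered as a covariate they were -0.64 and -0.51, and neither passed the cutoff. A decrease of 1.5-fold in *Foxe3* was therefore within what these pools allow.

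*Pitx3* measured 60.5, 62.7 and 77.0 CPM in *FVB/N*, 64.0, 63.9 and 64.6 CPM in *P0-3.9GFPCre* and 73.0, 51.8 and 63.5 CPM in *Le-Cre*. The 3 lines overlapped. Its log2 fold change was -0.09 in *Le-Cre* (SE 0.12, adjusted p = 0.915) and -0.06 in *P0-3.9GFPCre* (SE 0.12, adjusted p = 0.951). With the Y-linked signal as a covariate the *Le-Cre* value was -0.27, which did not pass the cutoff.

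*Tfap2a* measured 25.2, 24.4 and 24.3 CPM in *FVB/N*, 21.4, 24.7 and 23.6 CPM in *P0-3.9GFPCre* and 22.7, 22.2 and 22.2 CPM in *Le-Cre*. The *Le-Cre* pools all lay below those of *FVB/N*, and the log2 fold change was -0.14 (SE 0.073, interval -0.30 to 0.02, adjusted p = 0.707). Of the 6 lens epithelial markers, 3 lay wholly lower in *Le-Cre* than in *FVB/N* in TPM, a scale on which *Tfap2a* itself overlapped. *Cdh1* measured 36.2, 38.2 and 37.9 TPM in *FVB/N* and 34.1, 32.9 and 33.9 TPM in *Le-Cre*, *Pdgfra* 31.0, 30.3 and 31.2 against 26.3, 23.97 and 24.4 TPM, and *Npnt* 21.6, 21.8 and 19.5 against 18.8, 18.7 and 17.4 TPM. In contrast, *Mki67* lay wholly higher in *Le-Cre*, at 5.76, 6.44 and 6.08 TPM against 5.04, 5.01 and 5.69 TPM in *FVB/N*. *Gja1* and *Top2a* overlapped between these lines. The share of all genes that separate in TPM was not counted. In CPM, 7.03% of all genes lay wholly lower in *Le-Cre* than in *FVB/N* and 6.46% wholly higher. The part of the 6 markers in the value of *Tfap2a* was not tested. In counts, *Gata3* was nearly level, at 15.5, 13.2 and 12.6 CPM in *FVB/N*, 13.7, 15.3 and 13.3 CPM in *P0-3.9GFPCre* and 14.2, 12.9 and 14.3 CPM in *Le-Cre*. The corresponding log2 fold change was -0.0011 in *Le-Cre* (SE 0.10, interval -0.23 to 0.23, adjusted p = 0.999) and 0.03 in *P0-3.9GFPCre* (SE 0.10, adjusted p = 0.976).

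Separation of pools, in which every value of one line lies above or below every value of the other, was counted in CPM for the 9 genes and for all genes. In TPM the pools overlapped for each of the 9 genes in every comparison. Comparing *Le-Cre* with *FVB/N*, 0 of 9 lay wholly higher and 1 of 9 (*Tfap2a*) wholly lower, beside 6.46% and 7.03% of all genes. In *P0-3.9GFPCre* relative to *FVB/N*, 1 lay wholly higher (*Mafg*) and 1 wholly lower (*Prox1*), beside 6.02% and 5.94%. Between the Cre lines, *Le-Cre* was wholly higher for 1 (*Prox1*) and wholly lower for 1 (*Mafg*), beside 6.74% and 7.37%. When the 6 Cre pools were set against the 3 *FVB/N* pools, 0 of 9 separated in either direction, beside 1.66% and 1.85% of all genes. Between lines of 3 pools each, 0.1 is the smallest two-sided p that exact permutation allows, and the separations are given as counts only.

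Much of the variation ran between pools of one line. *FVB/N* replicate 3 held the highest of the 9 CPM values for 5 of the 9 genes (*Maf*, *Prox1*, *Sox1*, *Pitx3* and *Foxe3*), as it did for 14.4% of all genes tested. *Mafk* and *Gata3* were lowest in that pool. For *Foxe3*, replicate 2 was the lowest pool in each line. Over the 9 pools, log2 CPM of *Foxe3* ran with that of *Pitx3* at r = 0.867 (Spearman's rho 0.633) and with that of *Maf* at r = 0.816 (rho 0.850), and *Sox1* ran with *Maf* at r = 0.860 (rho 0.883). *Mafk* ran opposite to *Sox1*, at r = -0.860. The points share their libraries, and these values describe the 9 pools only.

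The transcripts of *Foxe3* and *Pitx3* are rich in G and C, at 73.1% and 68.3%, whereas those of the other 7 genes lie between 45.3% and 56.9%. Among the 66 tested genes with at least 65% GC, the median log2 CPM deviated by 0.128 in *FVB/N* replicate 3, 0.126 in *Le-Cre* replicate 1 and -0.17 in *Le-Cre* replicate 2 from the mean of the 9 pools. In these 3 pools, where that median deviated most, *Foxe3* deviated in the same directions, by 0.582, 0.238 and -0.533. When the counts were corrected for the GC content of each pool, an analysis added after the data were seen, these deviations were 0.5, 0.159 and -0.402, r between *Foxe3* and *Pitx3* was 0.807, and r between *Foxe3* and *Maf* was 0.869. Before correction, *Foxe3* deviated opposite to the median of the 66 genes in *FVB/N* replicates 1 (0.111 beside -0.033) and 2 (-0.106 beside 0.035). It also did so in *P0-3.9GFPCre* replicate 3 (-0.087 beside 0.023). The part of GC content in the differences between lines was not tested further.

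**Figure D4:**
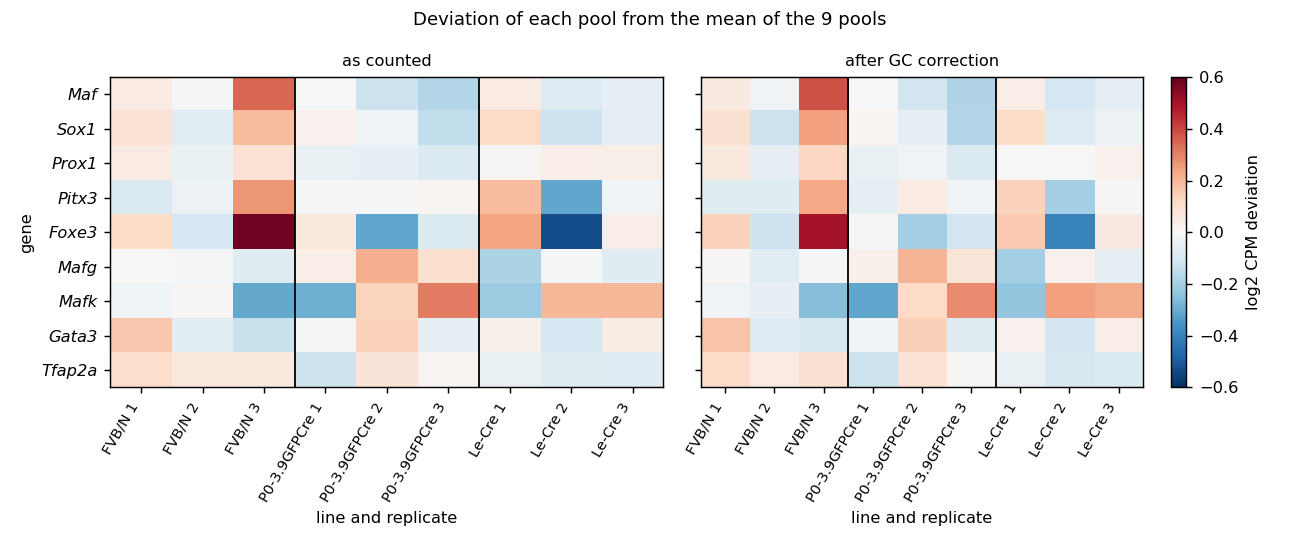
Deviation of log2 CPM of each gene in each pool from its mean over the 9 pools (colour, from -0.6 to 0.6), as counted on the left and after GC correction on the right; vertical lines separate the 3 lines. *Maf*, *Sox1*, *Prox1*, *Pitx3* and *Foxe3* are all above their means in *FVB/N* replicate 3, and *Foxe3* is lowest in *Le-Cre* replicate 2, in both panels.

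The genes most like each of the 9 over the pools were sought among the 7651 tested genes with a mean of at least 10 CPM. *Maf* was followed most closely by *Lrrc58* (r = 0.953) and *Parg* (0.942), *Prox1* by *Dennd6a* (0.979) and *Cp* (0.960), and *Sox1* by *Fahd2a* (0.947) and *Ccdc12* (0.937). For *Mafg* these were *Zmym3* (0.981) and *Kif3c* (0.971), and for *Mafk* *Kat5* (0.963) and *Srp54a* (0.952). *Pitx3* was followed by *Ctbp2* (0.948) and *Rpl36* (0.942), *Gata3* by *Dusp7* (0.928) and *Inpp5k* (0.922), and *Tfap2a* by *1700025G04Rik* (0.980) and *Adam22* (0.949). *Foxe3* ran most closely with *Crybb1* (0.967), a crystallin gene of fibre cells, and with *Bloc1s6* (0.954). Each r is among the highest of all genes searched, over 9 pools that share libraries, and is given as a description.

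The partners and targets of these factors were examined as lists of known genes. Of the 6 CNC partners of the small MAF proteins, 5 were tested and 0 passed the cutoff in any comparison, with a median log2 fold change of 0.02 in *Le-Cre* and 0.03 in *P0-3.9GFPCre*. The most abundant was *Nfe2l1*, at 49.4 ± 5.72 TPM (SD, n = 3) in *FVB/N*, ahead of *Bach2* at 15.0 ± 0.911 and *Nfe2l2* at 14.7 ± 0.582 TPM. *Bach1*, a repressor of the heme oxygenase gene, had a log2 fold change of -0.17 in *P0-3.9GFPCre* (SE 0.07, adjusted p = 0.662), and *Nfe2l3*, at 0.310 ± 0.139 TPM in *FVB/N*, one of 0.56 in *Le-Cre* (SE 0.66, adjusted p = 0.895).

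Of 14 other lens transcription factors, of which *Sox2* is also counted with its family, 0 passed the cutoff, with a median log2 fold change of -0.02 for *Le-Cre* and 0.01 for *P0-3.9GFPCre*. *Hsf4*, which drives crystallin and heat shock genes in fibre cells, measured 169 ± 10.4 TPM (SD, n = 3) in *FVB/N*, *Pax6*, whose promoter fragments drive both transgenes, 86.3 ± 7.70 TPM and *Zeb2* 21.98 ± 4.05 TPM. *Pax6* had a log2 fold change of -0.01 in *Le-Cre* (SE 0.06, interval -0.15 to 0.12) and 0.08 in *P0-3.9GFPCre* (SE 0.06, interval -0.06 to 0.22). The largest fold changes belonged to *Msx2*, at -0.29 in *P0-3.9GFPCre* (SE 0.21, adjusted p = 0.829), *Sox11*, at 0.22 (SE 0.24, adjusted p = 0.890), and *Rbpj*, at -0.17 between the Cre lines (SE 0.08, adjusted p = 0.656).

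Of the 16 crystallin genes, 0 passed the cutoff, with a median log2 fold change of -0.04 in *Le-Cre* and -0.07 in *P0-3.9GFPCre*. The most abundant were *Cryaa*, at 137875 ± 3973 TPM (SD, n = 3) in *FVB/N*, *Cryga* at 106403 ± 11161 TPM and *Cryba1* at 82789 ± 2904 TPM, all of which hold the MAF half-site shown above. The largest difference was that of *Crygs*, at 6698, 4806 and 5355 TPM in *FVB/N*, 4968, 5049 and 6057 TPM in *P0-3.9GFPCre* and 6614, 6968 and 7592 TPM in *Le-Cre*, with a log2 fold change of 0.43 in *Le-Cre* relative to *P0-3.9GFPCre* (SE 0.13, adjusted p = 0.463). *Crybb2* followed, at 0.27 in *Le-Cre* relative to *FVB/N* (SE 0.21, adjusted p = 0.816), and *Crygb*, at -0.26 in *P0-3.9GFPCre* (SE 0.12, adjusted p = 0.722).

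Of 12 antioxidant genes regulated through NRF2 and small MAF proteins, 0 passed the cutoff, with a median log2 fold change of 0.06 in *Le-Cre* and 0.01 in *P0-3.9GFPCre*. *Hmox1*, the heme oxygenase gene, measured 85.4, 97.9 and 129 TPM in *FVB/N*, 179, 132 and 175 TPM in *P0-3.9GFPCre* and 201, 183 and 167 TPM in *Le-Cre*. Every Cre pool was above every *FVB/N* pool in TPM, a scale on which the share of all genes was not counted. In CPM, 1.66% of all genes lay wholly higher in the 2 Cre lines together. The log2 fold change was 0.78 in *Le-Cre* (SE 0.16, interval 0.43 to 1.13, adjusted p = 0.178) and 0.56 in *P0-3.9GFPCre* (SE 0.16, interval 0.21 to 0.91, adjusted p = 0.590). The ferritin gene *Ftl1*, the most abundant of the list at 1474 ± 119 TPM (SD, n = 3) in *FVB/N*, had a log2 fold change of -0.05 in *Le-Cre* (adjusted p = 0.940). *Fth1* had one of 0.05 (adjusted p = 0.947) and *Prdx1*, which encodes a peroxiredoxin, one of 0.23 (adjusted p = 0.619). The largest values besides that of *Hmox1* were those of *Slc7a11*, at -0.63 (SE 0.38, adjusted p = 0.807), and *Nqo1*, at -0.31 (SE 0.36, adjusted p = 0.903), both in *P0-3.9GFPCre*. For *Slc7a11* the value rests on *FVB/N* replicate 3, since the gene measured 2.65, 2.73 and 7.94 TPM in *FVB/N* and 2.86, 2.86 and 3.08 TPM in *P0-3.9GFPCre*.

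Of 10 genes of cell cycle exit, 8 were tested, and 1 passed the cutoff in *Le-Cre* relative to *FVB/N*. This was *Cdkn1a*, which encodes the cyclin-dependent kinase inhibitor p21, at 0.930, 0.840 and 0.790 TPM in *FVB/N*, 3.07, 1.07 and 4.15 TPM in *P0-3.9GFPCre* and 8.28, 7.98 and 7.81 TPM in *Le-Cre*. It rose by 3.21 on the log2 scale in *Le-Cre* (SE 0.36, adjusted p = 0.0331), and the call was lost when any single *FVB/N* or *Le-Cre* pool was left out (adjusted p from 0.0522 to 0.174) while the fold change stayed between 3.19 and 3.25. With the share of counts from Y-linked genes as a covariate the value was 2.72 with an adjusted p of 0.230. Of all 24 alternatives, 15 kept the call, and the log2 fold change lay between 1.05 and 3.25 over the 24.

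The most abundant gene of the list was *Cdkn1c*, which encodes the inhibitor p57 of differentiating fibre cells, at 1536, 1398 and 1231 TPM in *FVB/N*, 1567, 1395 and 1572 TPM in *P0-3.9GFPCre* and 1181, 1123 and 1310 TPM in *Le-Cre*. The *Le-Cre* line lay below *P0-3.9GFPCre* in every pool and overlapped with *FVB/N* in TPM. In CPM, 7.37% of all genes lay wholly lower in *Le-Cre* than in *P0-3.9GFPCre*, and the share in TPM was not counted. The log2 fold change of *Cdkn1c* in *Le-Cre* was -0.26 relative to *P0-3.9GFPCre* (SE 0.07, adjusted p = 0.429). Relative to *FVB/N* it was -0.24 (SE 0.07, interval -0.40 to -0.07, adjusted p = 0.439). The cyclin genes *Ccnd2* and *Ccnd1* had log2 fold changes of 0.13 and 0.11 in *Le-Cre* (adjusted p = 0.809 and 0.742), and *Cdkn2d* one of -0.16 (adjusted p = 0.921).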

How the data were processed

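Whole lenses were sequenced as polyadenylated RNA in single-end reads of 50 cycles from RNA with an integrity number of at least 8.0. According to the methods and processing notes, the authors trimmed the reads with Trimmomatic 0.36, aligned them to GRCm38 using GSNAP and estimated gene abundance using RSEM 1.3.0. The annotation and the strand setting are not given in the sources used here. The deposited expected counts are unnormalized estimates that divide reads shared by several genes, and the deposited TPM values are scaled by the authors' RSEM run for transcript length and library total. The authors' DESeq2 1.10.1 results were not used.

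Levels of different genes were compared in TPM. Expected counts were rounded and fitted with edgeR 4.0.16 in R 4.3.3 (TMM, filterByExpr, 1 coefficient per line over 9 pools, glmQLFit and glmQLFTest), with Benjamini-Hochberg adjustment over 15557 genes, and every adjusted p is from this fit unless another tool is named. Genes passed at a change of 1.5-fold or more and an adjusted p up to 0.05. SE is the absolute log2 fold change over the square root of F, and intervals use its t distribution. The code was tested on simulated data. Alternatives used DESeq2 1.42.0 (independent filtering at its default of 0.1), limma 3.58.1 on log2(TPM + 0.1) and log2(TPM + 1), other filters, normalizations, samples and covariates, and fits without each pool. Coordinates are from GENCODE M21 on GRCm38, in which 47224 of 47729 identifiers were found.

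Groups came from the sample labels. The title and description of *FVB/N* replicate 3 give different numbers, and the title was used. All 9 genes are named. The gene family of *Maf* is not reported here. Of relatives, those with a mean of at least 1 TPM in *FVB/N* are named, and of each related list the 3 most abundant in *FVB/N* and up to 3 with the largest fold changes. The genes and lists were chosen with earlier results of these data known. The pools of a line are the study's biological replicates.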

Additional observations from a re-analysis of the deposited data

Results flagged for a closer look

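Of 39 genes screened, 1 met the criterion that the pools of the Cre lines lie on opposite sides of the *FVB/N* mean, without passing any test. *Nfe2l1*, which encodes a CNC partner of the small MAF proteins, measured 101, 103 and 104 CPM in *FVB/N*, 103, 104 and 107 CPM in *P0-3.9GFPCre* and 99.5, 92.7 and 94.9 CPM in *Le-Cre*. All 3 *Le-Cre* pools lay below the *FVB/N* mean of 103 CPM and all 3 *P0-3.9GFPCre* pools above it. The log2 fold change between the Cre lines was -0.13, and edgeR's quasi-likelihood test gave an adjusted p of 0.584. Such a pattern occurred in 524 of 15557 genes (3.37%), and in 1 of the 39 tested genes named here. The *P0-3.9GFPCre* and *FVB/N* pools overlapped, with a log2 fold change of 0.03 (adjusted p = 0.942).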

How the results depend on the processing

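Of the 9 genes, 0 passed the cutoff in all 99 alternatives over the 4 comparisons. None of the 855 alternative fold changes of these genes passed it, and the smallest adjusted p was 0.182. The sign changed in 46 of them, which concerned 13 of 36 fold changes. The largest count over all genes in any alternative was 131 of 27804 tested, so 0 of 9 does not set these genes apart. Counts over all genes varied between the alternatives, and the causes were not tested.

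In *Le-Cre* relative to *FVB/N* (10 genes), DESeq2 without a prior called 49, no filter 131, a mean of at least 10 counts 5, the replicate block 2, the Y-linked covariate 0, both limma fits 1, GC correction 5 and GC correction with the replicate block 2, and fits without 1 pool called 0 to 10. In *P0-3.9GFPCre* relative to *FVB/N* (0 genes), DESeq2 called 11 without and 1 with a prior, no filter 93 and GC correction with the block 1, and fits without 1 pool 0 to 14. Between the Cre lines (0 genes), DESeq2 called 32 and 4, no filter 123, the compared pools alone 31 and both limma fits 1, and fits without 1 pool 0 to 18. For both Cre lines (0 genes), DESeq2 called 30 and 2, no filter 101, the block 1, GC correction 1 and both together 1, and fits without 1 pool 0 to 6.

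These DESeq2 counts use its default level of 0.1 for independent filtering. The level of 0.05, which matches the cutoff, was tried after the counts were seen, when they differed from an earlier analysis of the same data. Without a prior it gave 49, 2, 35 and 33 genes in the 4 comparisons in the order above, and with a prior 8, 1, 4 and 2. The 2 GC corrections were also chosen after seeing the data.

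Fold changes that changed sign were small. In *Le-Cre* relative to *FVB/N*, the Y-linked covariate gave 0.01 for *Mafg* and *Prox1*, both limma fits 0.03 for *Prox1*, and for *Gata3* the stricter filter gave 0.0024, the compared pools 0.0016 and the replicate block 0.0019. Between the Cre lines, the covariate gave -0.02 for *Mafk* and -0.14 for *Foxe3*, and limma gave -0.05 and -0.04 for *Mafk*, -0.0032 for *Sox1* and -0.01 and -0.0046 for *Foxe3*. For both Cre lines *Gata3* was -0.0016 and -0.0043 in limma, -0.0033 with GC correction and -0.0004 with the block added.

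Without 1 pool, the ranges in *Le-Cre* relative to *FVB/N* were -0.04 to 0.03 for *Prox1*, -0.21 to 0.04 for *Pitx3* and -0.06 to 0.10 for *Gata3*. In *P0-3.9GFPCre* they were -0.12 to 0.06 for *Pitx3* and -0.03 to 0.12 for *Gata3*. Between the Cre lines they were -0.15 to 0.14 for *Mafk*, -0.04 to 0.08 for *Sox1*, -0.16 to 0.09 for *Pitx3*, -0.12 to 0.25 for *Foxe3* and -0.07 to 0.03 for *Gata3*. For both lines they were -0.14 to 0.04 for *Pitx3* and -0.04 to 0.11 for *Gata3*.

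The replicate numbers were not treated as pairs: residuals of same-numbered pools correlated at 0.0299 on average (-0.104 to 0.120, 3 of 9 pairs over 0.1), against -0.0149 for the others (1 of 18 over 0.1). With 3 pools a line, the interval of *Foxe3* does not exclude a decrease of 1.5-fold.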
